A study of Mus musculus with 28 samples.

Results

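The axon guidance genes described here are the semaphorins of classes 3 to 7 with their plexin and neuropilin receptors, the ephrins with their EphA and EphB receptors, the Slit ligands with the Robo receptors, and the netrins with the Unc5 receptors. They were chosen by symbol among the protein-coding genes of the count table. The rule uses no expression value, but the choice was made with earlier results of these data known. The rule found 67 of the 52636 genes listed, 34 ligands and 33 receptors, and 66 of them passed the filter on low counts. The 1 member left out by the filter, the receptor Epha10, had a mean of at most 6.38 normalized counts at any stage, and the netrin Ntn3, which the rule also names, was not analysed here. Expression was measured with RNAseq in single first molar tooth germs of wild type C57BL/6JOlaHsd mouse embryos, without any treatment, at E13 (the bud stage, labelled E13.5), E14 (the cap stage, labelled E14.5), and E16 (the bell stage, labelled E16.5). There were 7 teeth of each stage, from 7, 6, and 5 embryos, so that at E14 and E16 some teeth shared an embryo. A second deposited table adds 6 teeth labelled E15, which are described at the end and were not tested. Each library holds a whole tooth germ, epithelium and mesenchyme together, with a little of the tissue around it. The question asked of these genes was which of them changed between the bud, the cap, and the bell.

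Axon guidance molecules steer the growing tip of an axon, and most of them also act on cells other than neurons. Semaphorins are secreted or membrane-bound ligands that bind plexins, and those of class 3 mostly bind through neuropilins. Ephrins are held at the cell surface, and ephrin-A ligands mainly bind EphA receptors while ephrin-B ligands mainly bind EphB receptors, so that the signal passes between touching cells and can run in both directions. Slits are large secreted proteins that act through Robo receptors, and netrins attract through Dcc and repel through Unc5. In the developing mouse molar, Sema3a made by the dental mesenchyme is known to keep trigeminal axons out of the tooth germ until after the bell stage has begun.

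Totals of counts on genes were between 17814073 and 27115729 per tooth. Values below are given as normalized counts, which are counts scaled by the TMM method to the mean library. Levels of different genes are compared as FPKM, the same values scaled to library size and to the length of all annotated exons of a gene. Where genes are ordered by normalized counts, this is stated. A fold change is the edgeR estimate, given on the log2 scale with its standard error (SE), and an adjusted p is the Benjamini-Hochberg value of the edgeR quasi-likelihood test over all 19101 genes tested. A gene is said to have risen or fallen where this value was below 0.05. Because each value is a mean over all cells of a tooth, fewer cells that express a gene and less RNA per cell cannot be told apart. The left tooth of embryo 3 at E16 (E16 3L) stood apart from the other E16 teeth, with the lowest total, a median correlation of 0.946 with its own stage where all other teeth had at least 0.961, and the lowest value of the 7 E16 teeth in 71.2% of the 66 tested members, against 36.9% of all genes tested. Counts are therefore given with and without this tooth. The left tooth of embryo 7 at E13 held more muscle RNA than its stage, with a sum over 8 muscle markers of 5462 normalized counts against a median of 210, and the left tooth of embryo 8 at E14 more bone RNA, with a sum over 8 bone markers of 41128 against a median of 19200.

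Levels ranged widely between members. A mean of at least 10 FPKM was reached by 29 of the 67 members at E13, 33 at E14, and 28 at E16, and 9, 6, and 9 members were below 1 FPKM. On this scale the highest member over the 21 teeth was the receptor Plxnb2 at 52.0 FPKM, followed by the receptor Ephb4 at 43.0, the ligand Slit3 at 42.2, and the plexins Plxnd1 and Plxna1 at 36.6 and 33.1. The highest members of the other families were Efna5 at 32.2 FPKM, Sema6a at 29.5, Epha7 at 27.0, Nrp2 at 24.4, Sema3f at 23.5, Efnb2 at 22.2, Robo1 at 20.7, and Unc5b at 15.7. Netrins were the lowest family, led by Ntn1 at 3.85 FPKM, and their summed level was 6.09 ± 1.29 FPKM at E13 (mean ± SD, n = 7). The summed level of the plexins at the same stage was 163 ± 7.33 FPKM, and that of the class 4 to 7 semaphorins 118 ± 4.06. These orders depend on the exon lengths used. By normalized counts the highest member was the same in 9 of 12 families. In the other families Slit2, Sema5a, and Sema3a were highest by normalized counts, in place of Slit3, Sema6a, and Sema3f.

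Between the bud and the cap, 12 of the 66 tested members rose and 14 fell, which are 18.2% and 21.2% of them, where 11.3% of all genes tested rose and 8.47% fell. From the cap to the bell, 11 members rose and 19 fell (16.7% and 28.8%), where 15% of all genes rose and 13.1% fell. Over the whole interval from E13 to E16, 19 members rose and 22 fell (28.8% and 33.3%), beside 21.6% and 19.6% of all genes. The median change of the members was small, at 0.026, -0.084, and -0.085 on the log2 scale in the 3 comparisons, beside -0.008, 0.004, and -0.01 for all genes, while the median size of a change regardless of direction was 0.244, 0.316, and 0.502 for the members and 0.214, 0.244, and 0.309 for all genes. All 3 comparisons share teeth with each other, and their counts are not independent. Without E16 3L, 19 members rose and 15 fell from E13 to E14 (all genes 16.7% and 13.8%), 19 rose and 20 fell from E14 to E16 (18.5% and 15.8%), and 25 rose and 22 fell from E13 to E16 (25.5% and 23.1%). That tooth also enters the first comparison, because the teeth of all stages share 1 estimate of the spread.

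Ligands and receptors were counted separately. Of the 34 ligands, 9 rose and 6 fell from E13 to E14 (26.5% and 17.6%), 5 rose and 9 fell from E14 to E16 (14.7% and 26.5%), and 12 rose and 8 fell from E13 to E16 (35.3% and 23.5%). Of the 32 receptors tested, 3 rose and 8 fell (9.38% and 25.0%), then 6 rose and 10 fell (18.8% and 31.2%), and over the whole interval 7 rose and 14 fell (21.9% and 43.8%). The shares of all genes given above apply to both, and the rises of ligands from E14 to E16 and of receptors from E13 to E14 were no more frequent than among all genes. Rises of receptors from E13 to E16 were about as frequent as among all genes (21.9% and 21.6%). The difference between ligands and receptors was not tested. The 3 receptors that rose at the cap were Epha2, Unc5a, and Unc5b. The plot of fold changes by family shows that the falls from E14 to E16 included 5 of the 8 EphA receptors tested and 3 of the 5 EphB receptors.

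**Figure D1:**
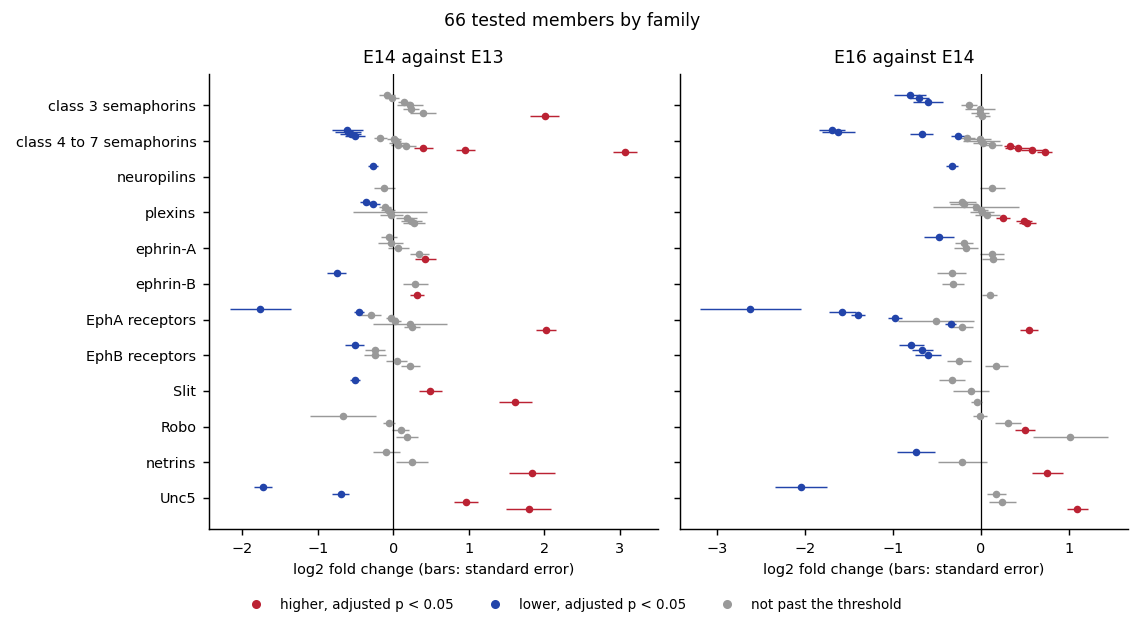
Log2 fold change of the 66 tested members by family, E14 against E13 (left) and E16 against E14 (right), with the standard error of the edgeR fit as bars; red members rose and blue members fell at an adjusted p below 0.05, and grey members did not pass. On the left the largest rise is Sema7a at 3.07, and on the right the Eph receptors lie mostly to the left of 0.

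For 6 members both steps passed the threshold in opposite directions over the 21 teeth. For Plxnc1 and Sema4f this rested on 1 fragile call each. The first 3 had their highest level at E14. Sema7a, a membrane-anchored semaphorin that binds the plexin Plxnc1 and integrins, had 81.6 to 144 (median 107) normalized counts over the E13 teeth, 723 to 1134 (median 938) over the E14 teeth, and 172 to 335 (median 308) over the E16 teeth. No E14 tooth overlapped with a tooth of another stage. It rose 8.42-fold from E13 to E14 (log2 3.07 ± 0.16 SE, adjusted p = 1.51e-12) and fell to 0.308 of the cap level at E16 (adjusted p = 3.95e-09). Sema3b, a secreted class 3 semaphorin, had 46.4 to 171 (median 97.3) normalized counts at E13, 317 to 456 (median 436) at E14, and 168 to 284 (median 239.6) at E16. Its rise was 4.01-fold (SE of the log2 value 0.19, adjusted p = 3.79e-08), its later fall was to 0.57 of the cap level (adjusted p = 0.00136), and again the E14 teeth stood above all the others. The netrin receptor Unc5a was scarce, with 11.3 to 47.4 (median 32.7) normalized counts at E13, 60.0 to 139.5 (median 113) at E14, and 11.1 to 37.3 (median 29.0) at E16. All 7 E14 teeth were above every other tooth. The changes were 1.79 ± 0.29 (SE) and -2.05 ± 0.30 on the log2 scale (adjusted p = 9.2e-05 and 9.44e-06). Its exons share 34 bases with the opposite-strand gene Hk3, which had means of 17.6, 28.1, and 34.0 normalized counts at the 3 stages.

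The opposite course was taken by Unc5c, another repellent receptor for netrins. It had 1787 to 3436 (median 2744) normalized counts at E13, 643 to 1082 (median 846) at E14, and 1611 to 2142 (median 1754) at E16. All E14 teeth lay below the teeth of both other stages. Unc5c fell to 0.303 of its E13 level (log2 -1.72 ± 0.12 SE, adjusted p = 1.45e-10) and then rose 2.14-fold (adjusted p = 9.62e-08). Plxnc1 had 549 to 787 (median 644) normalized counts at E13, 467 to 615 (median 546) at E14, and 709 to 859.7 (median 723) at E16, with log2 changes of -0.27 ± 0.09 and 0.49 ± 0.09 (SE, adjusted p = 0.0399 and 0.00024). The E13 and E14 teeth overlapped, and the E14 and E16 teeth did not. The transmembrane semaphorin Sema4f had 169 to 252 (median 192) normalized counts, then 103 to 171 (median 137), then 136 to 218 (median 185), with overlap at both steps and changes of -0.56 ± 0.14 and 0.42 ± 0.14 (SE, adjusted p = 0.00548 and 0.0266). Plxnc1 and Sema4f are outside the rule for the members given in full and were added because they were past the threshold in both steps in opposite directions. The first-step call of Plxnc1 was lost in 10 of 30 alternatives, among them leaving out any of 8 single teeth (E13 1R, 2L, 3L, or 5R, or E14 3R, 5R, 6L, or 8L). The second-step call of Sema4f was lost in 6 of 30, among them leaving out E14 6L or E16 5L, 7R, or 8L. Both steps use the same 7 E14 teeth, so that a high or low value in these teeth enters both changes with opposite sign.

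**Figure D2:**
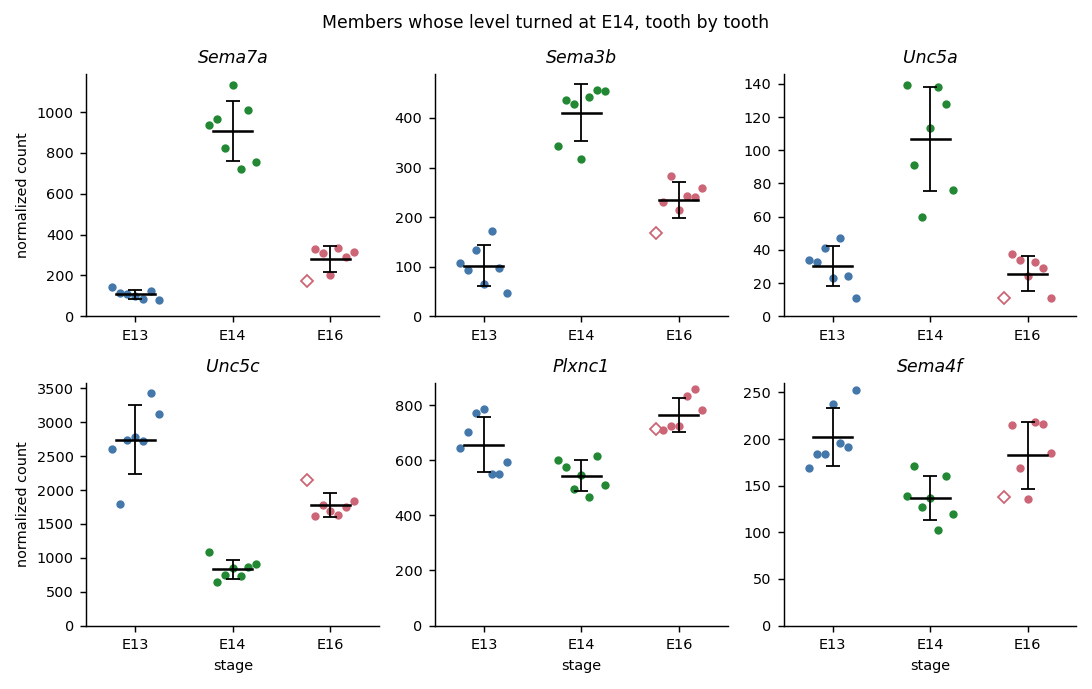
Normalized counts of the 6 members that were past the threshold in both steps in opposite directions, one point per tooth in 7 teeth per stage, with the mean as a line and the SD as bars; the open diamond is E16 3L. The E14 teeth of Sema7a, at 723 to 1134, lie above all other teeth, and those of Unc5c, at 643 to 1082, lie below all other teeth.

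The promoters of these members are shown because they moved together or oppositely at the cap. The sequences run from 250 bases before to 50 bases after the start in RefSeq (GRCm38.p6), 5′ to 3′ on the strand of the gene. Capitals mark each match, on either strand, to any of 7 motifs: the TATA box (TATAAA), the CCAAT box (CCAAT), the GC box (GGGCGG), the site of Tcf/Lef factors (ATCAAAG), a homeodomain site of the Msx kind (TAATTG), the AP-1 site (TGANTCA), and an E-box (CACGTG). Sema3b has no entry among the promoters used.
Sema7a, chr9:57939862-57940161, plus strand: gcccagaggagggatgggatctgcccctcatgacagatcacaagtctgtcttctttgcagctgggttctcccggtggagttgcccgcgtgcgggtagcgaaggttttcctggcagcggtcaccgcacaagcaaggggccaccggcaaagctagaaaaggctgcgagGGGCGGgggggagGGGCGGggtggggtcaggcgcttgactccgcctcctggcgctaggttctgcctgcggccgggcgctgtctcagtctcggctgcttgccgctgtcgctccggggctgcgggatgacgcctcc
Unc5a, chr13:54949161-54949460, plus strand: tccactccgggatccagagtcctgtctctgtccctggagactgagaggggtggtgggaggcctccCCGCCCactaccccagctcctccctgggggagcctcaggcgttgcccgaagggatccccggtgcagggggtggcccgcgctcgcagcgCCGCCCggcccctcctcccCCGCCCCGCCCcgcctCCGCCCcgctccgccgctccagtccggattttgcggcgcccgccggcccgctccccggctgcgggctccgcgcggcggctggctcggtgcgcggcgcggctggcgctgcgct
Unc5c, chr3:141465314-141465613, plus strand: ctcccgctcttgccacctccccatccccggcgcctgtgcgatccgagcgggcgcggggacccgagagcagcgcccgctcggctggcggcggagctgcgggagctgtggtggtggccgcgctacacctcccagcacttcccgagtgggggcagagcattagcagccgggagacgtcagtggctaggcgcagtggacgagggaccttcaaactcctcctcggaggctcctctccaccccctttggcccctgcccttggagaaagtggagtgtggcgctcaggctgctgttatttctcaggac
Plxnc1, chr10:94944796-94945095, minus strand: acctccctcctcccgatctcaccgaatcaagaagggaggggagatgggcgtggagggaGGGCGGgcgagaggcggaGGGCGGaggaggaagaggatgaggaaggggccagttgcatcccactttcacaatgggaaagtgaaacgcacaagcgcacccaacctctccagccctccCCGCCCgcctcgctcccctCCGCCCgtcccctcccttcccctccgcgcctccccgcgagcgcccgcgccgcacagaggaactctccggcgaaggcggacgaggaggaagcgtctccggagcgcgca
Sema4f, chr6:82939720-82940019, minus strand: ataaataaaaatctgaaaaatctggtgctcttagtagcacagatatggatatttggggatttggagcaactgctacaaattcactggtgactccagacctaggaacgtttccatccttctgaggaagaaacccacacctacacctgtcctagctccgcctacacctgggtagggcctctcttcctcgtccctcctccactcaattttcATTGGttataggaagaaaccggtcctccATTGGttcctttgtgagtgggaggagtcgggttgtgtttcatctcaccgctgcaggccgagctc

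Among these promoters the GC box was the only motif found in Sema7a (2 matches), Unc5a (5 matches, some of them overlapping), and Plxnc1 (4 matches), the promoter of Sema4f held 2 CCAAT boxes and no other match, and that of Unc5c held none of the 7 motifs. The GC content was 67.3% for Sema7a, 78.3% for Unc5a, 68.3% for Unc5c, 69.0% for Plxnc1, and 48.7% for Sema4f, where the median was 64.8% over the 58 members with a promoter and 57.0% over 16521 promoters of protein-coding genes. A GC box stood in 42 of the 58 member promoters (72.4%) and in 48.2% of all promoters, and a CCAAT box in 17 (29.3%) and 38.8%. The other motifs were in few members: the TATA box in 2 (3.45%, all promoters 12.9%), the Tcf/Lef site in 1 (1.72%, all 3.16%), the Msx site in 2 (3.45%, all 6.86%), the AP-1 site in 1 (1.72%, all 6.99%), and the E-box in 3 (5.17%, all 8.09%). A match describes these letters only.

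Class 3 semaphorins are secreted and mostly repel axons. Of 7 members, Sema3b alone rose at E14 and none fell, and from E14 to E16 none rose while Sema3b, Sema3d, and Sema3g fell. Sema3f, which binds Nrp2 and had the highest FPKM of the family, had 2701 to 3441 (median 2866) normalized counts at E13, 2506 to 3644 (median 2985) at E14, and 2245 to 3121 (median 2681) at E16. All stages overlapped and no change passed the threshold (log2 -0.02 ± 0.09 and -0.14 ± 0.09 SE, adjusted p = 0.92 and 0.264). Sema3a, named here for its known role in tooth innervation and not by the rule, had 3971 to 6058 (median 5015) normalized counts at E13, 5072 to 6351 (median 5425) at E14, and 5041 to 6363 (median 5438) at E16. Its changes were 0.14 ± 0.09 and 0.02 ± 0.09 on the log2 scale (SE, adjusted p = 0.265 and 0.906), and the teeth of all stages overlapped. Sema3d fell from E14 to E16 by 0.70 on the log2 scale (adjusted p = 3.02e-05). Sema3g, with a maximum of 236.9 normalized counts, fell at the same step (log2 -0.61 ± 0.17 SE, adjusted p = 0.00855), and neither Sema3c nor Sema3e passed in any comparison over the 21 teeth, while Sema3e did from E13 to E14 and from E13 to E16 without E16 3L. Sema3b and Sema3f are neighbours on chromosome 9 (GRCm38), at 107597674 to 107609229 and 107681500 to 107710475, with a gap of 72271 bases, and of the pair only Sema3b passed the threshold.

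The class 4 to 7 semaphorins, which are held in the membrane, split into both directions: 3 of 13 rose and 4 fell from E13 to E14, and 4 rose and 4 fell from E14 to E16. Sema6a, which signals through plexins of the A class and had the highest FPKM of these classes, had 5617 to 7244 (median 6612) normalized counts at E13, 6333 to 8705 (median 7232) at E14, and 2376 to 6138 (median 4609) at E16. The E16 teeth were below all E14 teeth (log2 -0.68 ± 0.13 SE, adjusted p = 0.000441). Sema5b, a semaphorin with thrombospondin repeats, had 356 to 766 (median 526) normalized counts, then 239.7 to 569.8 (median 337), then 74.6 to 141 (median 123). Its step to E16 was -1.62 ± 0.19 on the log2 scale (SE, adjusted p = 2.65e-07) with no overlap, whereas its step to E14 was -0.60 ± 0.18 (adjusted p = 0.0172) with overlap, and that call was lost without the E13 tooth 2L. Sema4a, a ligand known from immune cells and neurons, rose at the cap, with 281 to 405 (median 360.3) normalized counts at E13, 561 to 823 (median 672) at E14, and 459 to 954 (median 688) at E16 (log2 0.95 ± 0.12 SE, adjusted p = 3.74e-06 to E14, and 0.03 ± 0.12 SE, adjusted p = 0.903 to E16). Sema4d, the ligand of Plxnb1, rose in both steps, by 0.40 ± 0.12 and 0.58 ± 0.12 on the log2 scale (SE, adjusted p = 0.0246 and 0.000812). Sema4g rose from 855 to 999 (median 901) normalized counts at E14 to 1179 to 1739 (median 1499) at E16 without overlap (log2 0.72 ± 0.08 SE, adjusted p = 3.43e-07), and Sema6d rose at that step by 0.33 ± 0.07 (SE, adjusted p = 0.000584). Sema6b and Sema6c fell at the first step, by 0.61 and 0.50 on the log2 scale (adjusted p = 0.0386 and 0.00783), and Sema5a at the second, by 0.26 (adjusted p = 0.0276). The calls of Sema6b and Sema5a were lost in 12 and 11 of 30 alternatives, among them leaving out any of 10 single teeth for Sema6b and any of 7 for Sema5a. The first-step call of Sema4d was lost without E13 1R or 9R. Sema4b passed from E14 to E16 and from E13 to E16 without E16 3L only, and Sema4c in no comparison.

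Neuropilins bind class 3 semaphorins and also Vegf. Nrp2 made up 72.6% ± 3.69 of the summed FPKM of both neuropilins at E13 and 79.9% ± 3.75 at E16 (SD, n = 7). It had 5765 to 9571 (median 6849.9) normalized counts at E13, 5558 to 8324 (median 5987) at E14, and 3905 to 8392 (median 7111) at E16, with changes of -0.12 ± 0.14 and 0.13 ± 0.14 on the log2 scale (SE, adjusted p = 0.598 and 0.522). Nrp1 fell in both steps without overlap, from 1891 to 2475 (median 2109) normalized counts at E13 to 1643 to 1887 (median 1815) at E14 and 1261 to 1606 (median 1406) at E16 (log2 -0.27 ± 0.07 and -0.33 ± 0.07 SE, adjusted p = 0.00741 and 0.000751). Nrp1 is also expressed by endothelial cells, and of 13 endothelial markers none fell at either step while 2 rose at E14 and none from E14 to E16, and their part in the values of Nrp1 was not tested.

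Of 9 plexins, Plxna2 and Plxnc1 fell from E13 to E14 and none rose, and from E14 to E16 Plxna3, Plxnb1, and Plxnc1 rose and none fell. Plxnb2, a receptor for class 4 semaphorins, had 9605 to 11215 (median 9905) normalized counts at E13, 8589.8 to 11041 (median 9874) at E14, and 3198 to 10311 (median 9122) at E16, and the low end at E16 was E16 3L alone. Its changes did not pass (log2 -0.03 ± 0.16 and -0.20 ± 0.16 SE, adjusted p = 0.924 and 0.374). Plxnb1, the receptor of Sema4d, had 3479 to 4797 (median 3712) normalized counts, then 3338 to 4542 (median 3378), then 4578 to 6017 (median 5239), so that all E16 teeth were above all E14 teeth (log2 0.53 ± 0.09 SE, adjusted p = 0.000143). Plxna2, a coreceptor for class 3 semaphorins, had 3039 to 4290 (median 3369) normalized counts at E13, 2439.6 to 2924 (median 2720.2) at E14, and 2269 to 3071 (median 2714) at E16. It fell at the first step without overlap (log2 -0.37 ± 0.08 SE, adjusted p = 0.00241, then -0.00 ± 0.08 SE, adjusted p = 0.985). Plxna3 rose from E14 to E16 with overlap (log2 0.25 ± 0.08 SE, adjusted p = 0.0224). Plxna1, Plxna4, Plxnb3, and Plxnd1 passed in no comparison over the 21 teeth, and Plxnb3 had at most 34.8 normalized counts in any tooth. Without E16 3L, Plxna1 and Plxnd1 passed in all 3 comparisons.

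Ephrins are the ligands of the Eph receptors. Among the ephrin-A ligands 1 of 5 rose and none fell from E13 to E14, and none rose and 1 fell from E14 to E16. Efna5, the highest of them, had 2939.9 to 3896 (median 3286) normalized counts at E13, 2701 to 3739 (median 3213) at E14, and 1737 to 3221 (median 2905) at E16, with changes of -0.06 ± 0.10 and -0.19 ± 0.10 on the log2 scale (SE, adjusted p = 0.74 and 0.183). Efna1, a ligand of Epha2, had 272 to 373 (median 327) normalized counts at E13 and 393 to 482 (median 427) at E14 with no overlap (log2 0.42 ± 0.14 SE, adjusted p = 0.0352), and 222 to 567 (median 521) at E16. The rise at E14 was past the threshold in 19 of 30 alternatives. Efna2 had 803 to 987 (median 945) normalized counts at E14 and 213 to 866 (median 705) at E16 (log2 -0.48 ± 0.17 SE, adjusted p = 0.0345), and without E16 3L the change was -0.31 ± 0.07 (adjusted p = 0.000853). This call was lost in 11 of 30 alternatives, among them leaving out any of 8 other single teeth, 6 at E14 and 2 at E16. Efna3, which lies next to Efna1 and Efna4 on chromosome 3, rose over the whole interval (log2 0.48 ± 0.13 SE, adjusted p = 0.00342), and Efna4 passed in no comparison.

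The ephrin-B ligands moved apart. Efnb2, which is also a marker of arterial endothelium, had 2783 to 3520 (median 2972) normalized counts at E13, 3547 to 4088 (median 3735) at E14, and 2627 to 4432 (median 4233) at E16, and it rose at the first step without overlap (log2 0.31 ± 0.09 SE, adjusted p = 0.0126). Efnb3 had 1245 to 1617 (median 1511) normalized counts, then 727 to 1014 (median 888), then 409.9 to 861 (median 768), and it fell at the first step without overlap (log2 -0.75 ± 0.13 SE, adjusted p = 0.000113). At the second step the changes were 0.10 ± 0.09 for Efnb2 and -0.32 ± 0.13 for Efnb3 (SE, adjusted p = 0.439 and 0.0605). At E13 the 3 ephrin-B ligands had nearly equal shares of their summed FPKM, 35.0% ± 1.00 for Efnb1, 31.8% ± 2.37 for Efnb2, and 33.3% ± 2.14 for Efnb3 (SD, n = 7), and at E16 the share was 46.7% ± 4.67 for Efnb2 and 17.2% ± 1.69 for Efnb3.

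EphA receptors are receptor tyrosine kinases. All 8 tested differed between E13 and E16, 6 of them lower and 2 higher, and their summed FPKM (mean ± SD over 7 teeth) went from 101 ± 2.80 in the bud to 100.2 ± 5.20 in the cap and 63.0 ± 3.48 in the bell. Epha2, which is known from epithelial cells, was one of the 2 that were higher, with 244 to 336 (median 299.9) normalized counts at E13, 985 to 1364 (median 1236) at E14, and 548 to 1236 (median 1130.1) at E16. It rose 4.06-fold at the cap with no overlap (log2 2.02 ± 0.14 SE, adjusted p = 9.02e-11), the change to E16 was -0.22 ± 0.13 (SE, adjusted p = 0.221), and its lowest E16 value was in E16 3L. The other was Epha1, which is also known from epithelium and rose from E14 to E16 by 0.54 ± 0.10 on the log2 scale (SE, adjusted p = 0.000239). Its exons share 236 bases (6.01%) with the opposite-strand gene Zyx, which had means of 1954 to 2818 normalized counts at the 3 stages, and the strand setting of the counting is not stated.

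The falls of the EphA receptors began at different steps. Epha3 had 4968 to 5659.9 (median 5257) normalized counts at E13, 4794 to 5582 (median 5142) at E14, and 1612 to 2385 (median 1955) at E16, which was a fall to 0.378 of the cap level with no overlap (log2 -1.40 ± 0.08 SE, adjusted p = 2.47e-12) after a first step of -0.03 ± 0.08 (SE, adjusted p = 0.855). Epha7, the highest of the family in FPKM, likewise had 6951 to 7856 (median 7519) normalized counts, then 6633 to 9242 (median 7357), then 3286 to 4687 (median 3836) (log2 0.02 ± 0.08 SE, adjusted p = 0.892, then -0.98 ± 0.08 SE, adjusted p = 1.51e-09). Epha4 fell in both steps, by 0.46 and 0.34 on the log2 scale (adjusted p = 1.3e-05 and 0.000211), and no stage overlapped with another. Epha5 had 482 to 639 (median 591) normalized counts at E13, 361 to 513 (median 492) at E14, and 102 to 242 (median 126) at E16, with its fall in the second step (log2 -1.58 ± 0.15 SE, adjusted p = 1.71e-08). Epha6 was scarce, with 15.5 to 138 (median 68.4) normalized counts at E13, 11.5 to 40.9 (median 17.7) at E14 and 9.10 to 30.1 (median 13.8) at E16 (log2 -1.77 ± 0.41 SE, adjusted p = 0.00303 at the first step). Its stages overlapped.

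The change of Epha5 differed between the deposited tables. In the second deposited table, which holds counts estimated by salmon for E13, E15, and E16, its mean was 1388 ± 164 normalized counts at E13 and 942 ± 649 at E16 (SD, n = 7), and the change from E13 to E16 was -0.56 ± 0.27 (SE, adjusted p = 0.0994), where the HTSeq counts gave -1.88 ± 0.15 (adjusted p = 3.22e-10). The tooth E16 3L had 2395 normalized counts in the salmon table and the other E16 teeth 558 to 864, and without it the change in that table was -0.98 ± 0.10 (SE, adjusted p = 1.35e-07). For Epha3 the same change was -1.40 ± 0.10 in the salmon table and -1.43 ± 0.08 in the HTSeq counts, and for Epha7 it was -0.91 ± 0.08 and -0.96 ± 0.08 (SE). The values of each table were normalized within that table.

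**Figure D3:**
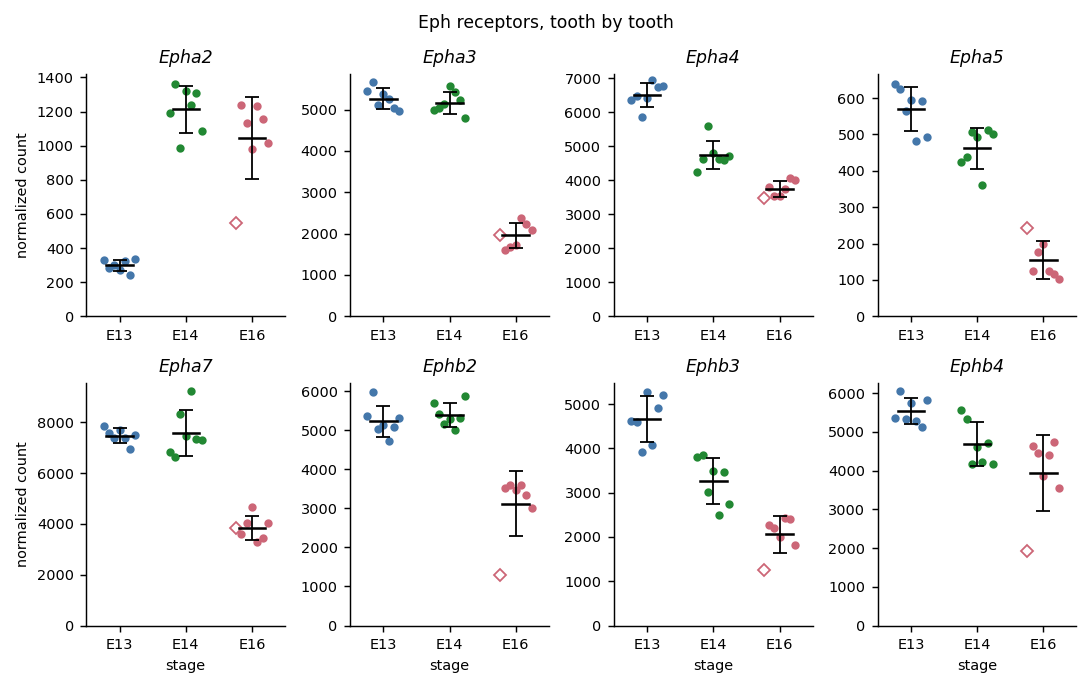
Normalized counts of 5 EphA and 3 EphB receptors, one point per tooth in 7 teeth per stage, with the mean as a line and the SD as bars; the open diamond is E16 3L. Epha3, Epha5, Epha7, and Ephb2 have all E16 teeth below all E14 teeth, whereas Epha2 rises at E14.

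EphB receptors fell without a rise at either step: 1 of 5 fell from E13 to E14 and 3 from E14 to E16, and over the whole interval 4 fell while Ephb6, which lacks kinase activity, rose (log2 0.40 ± 0.13 SE, adjusted p = 0.0139). Ephb4, the partner of Efnb2 in blood vessels and the EphB receptor of highest FPKM, had 5123 to 6046 (median 5358) normalized counts at E13, 4173 to 5558 (median 4602) at E14, and 1916 to 4729 (median 4411) at E16. Neither single step passed, and the change from E13 to E16 did (log2 -0.49 ± 0.13 SE, adjusted p = 0.00419). Ephb2 had 4718 to 5968 (median 5143) normalized counts at E13, 5003 to 5883 (median 5326) at E14, and 1286 to 3599.5 (median 3462) at E16. Its fall from E14 was -0.79 ± 0.14 with E16 3L (SE, adjusted p = 0.000122) and -0.64 ± 0.05 without it (SE, adjusted p = 1.21e-09). Ephb3 fell in both steps without overlap, from 3925 to 5268 (median 4628) normalized counts to 2489 to 3846 (median 3460.1) and 1245 to 2434 (median 2212) (log2 -0.51 ± 0.12 and -0.67 ± 0.12 SE, adjusted p = 0.00434 and 0.000205). Ephb1 had 309 to 426 (median 379.5) normalized counts at E14 and 147 to 306 (median 257) at E16 without overlap (log2 -0.61 ± 0.15 SE, adjusted p = 0.00287). Ephb2 and Epha8 are neighbours on chromosome 4, 93431 bases apart, and Epha8 had at most 46.5 normalized counts in any tooth, although its fall from E14 to E16 passed the threshold (adjusted p = 0.00109).

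Slit ligands changed at the cap, all 3 of them, and in different directions. Slit3 had 4789.5 to 5632 (median 5151) normalized counts at E13, 6403 to 7704 (median 7347) at E14, and 2241 to 7624 (median 6167) at E16, with a rise at E14 without overlap (log2 0.49 ± 0.15 SE, adjusted p = 0.0225). Slit2 fell at the same step by 0.51 on the log2 scale (adjusted p = 3.48e-06), from 9999 to 11092 (median 10304) normalized counts to 6404 to 8143 (median 7450.2), and then had 6493 to 7556 (median 7150.1) at E16 (adjusted p = 0.609). Slit1 was scarce, with 16.53 to 67.8 (median 39.1) normalized counts, then 94.2 to 167 (median 131), then 88.0 to 157 (median 123), and rose 3.07-fold at E14 without overlap (log2 1.62 ± 0.22 SE, adjusted p = 9.03e-06). The share of Slit3 in the summed FPKM of the Slits (± SD over 7 teeth) went from 67.0% ± 1.45 in the bud to 79.3% ± 2.05 in the cap and 74.4% ± 8.83 in the bell. This share rests on exon lengths of 6067 bases for Slit3 and 25433 for Slit2, and Slit2 had the higher mean by normalized counts.

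None of the 4 Robo receptors passed the threshold from E13 to E14, and from E14 to E16 Robo1 alone rose. Robo1 had 6120.4 to 7427 (median 6947) normalized counts at E13, 6664 to 7715 (median 7369) at E14, and 5609.8 to 12212 (median 11287) at E16, where E16 3L was the lowest tooth and the other 6 lay above all E14 teeth. The change was 0.50 ± 0.11 on the log2 scale with this tooth (SE, adjusted p = 0.00151) and 0.62 ± 0.06 without it (SE, adjusted p = 1.26e-08). Robo2 had 4486 to 5981 (median 5131), 4371 to 5185 (median 4934), and 4272 to 5775 (median 4723) normalized counts at E13, E14, and E16, with overlap (log2 -0.06 ± 0.08 and -0.01 ± 0.08 SE, adjusted p = 0.639 and 0.934). Robo4, which is known from endothelium, rose over the whole interval (log2 0.49 ± 0.15 SE, adjusted p = 0.00994), and 5 of the 13 endothelial markers rose over the same interval, with their sum at a median of 11244 normalized counts at E13 and 15029 at E16, and their part in this result was not tested. Robo3, with at most 53.5 normalized counts in any tooth, passed in no comparison, but was called from E14 to E16 in 3 of 30 alternatives.

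Netrins were low throughout. Ntn1, the secreted attractant, had 387 to 902 (median 525) normalized counts at E13, 494 to 1010.2 (median 679.8) at E14, and 194 to 627 (median 451) at E16, and fell from E14 to E16 with overlap (log2 -0.74 ± 0.21 SE, adjusted p = 0.0107). Ntn4, a netrin of basement membranes, had 112 to 226 (median 157) normalized counts, then 107 to 225 (median 132), then 158 to 297 (median 256), and rose at that step (log2 0.75 ± 0.18 SE, adjusted p = 0.00216). Ntn5 rose at E14, from 12.5 to 20.9 (median 19.1) normalized counts to 37.9 to 83.5 (median 75.3) without overlap (log2 1.84 ± 0.30 SE, adjusted p = 9.34e-05), and had 15.6 to 106 (median 52.2) at E16. Its exons share 519 bases (23.4%) with the opposite-strand gene Sec1, which had means of 12.1, 15.3, and 25.9 normalized counts at the 3 stages, and without a stated strand setting the reads of both genes cannot be told apart there. The share of Ntn1 in the summed FPKM of the netrins was 64.7% ± 9.15 at E13 and 41.9% ± 3.89 at E16 (SD, n = 7), and that of Ntn4 was 42.9% ± 6.99 at E16.

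All 4 Unc5 receptors changed from E13 to E14, Unc5a and Unc5b rising and Unc5c and Unc5d falling. Unc5b, which is known from blood vessels as well as neurons, had 1159 to 1462 (median 1344) normalized counts at E13, 1877 to 3175 (median 2572) at E14, and 1389.9 to 3938 (median 3095) at E16. It rose 1.95-fold at the cap with no overlap (log2 0.96 ± 0.16 SE, adjusted p = 7.02e-05), and its step to E16 was 0.24 ± 0.15 with E16 3L (SE, adjusted p = 0.249) and 0.39 ± 0.10 without it (SE, adjusted p = 0.00366). Unc5d fell at E14 by 0.70 on the log2 scale (adjusted p = 5.06e-05), also without overlap. With the changes of Unc5a and Unc5c given above, the make-up of the family moved: Unc5b (± SD over 7 teeth) went from 47.3% ± 4.06 of its summed FPKM in the bud to 76.9% ± 3.63 in the cap and 74.1% ± 8.15 in the bell, while Unc5c went from 31.8% ± 4.38 to 8.24% ± 1.68 and 15.4% ± 6.08. Shares are bound to each other within a family and are given as a description.

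**Figure D4:**
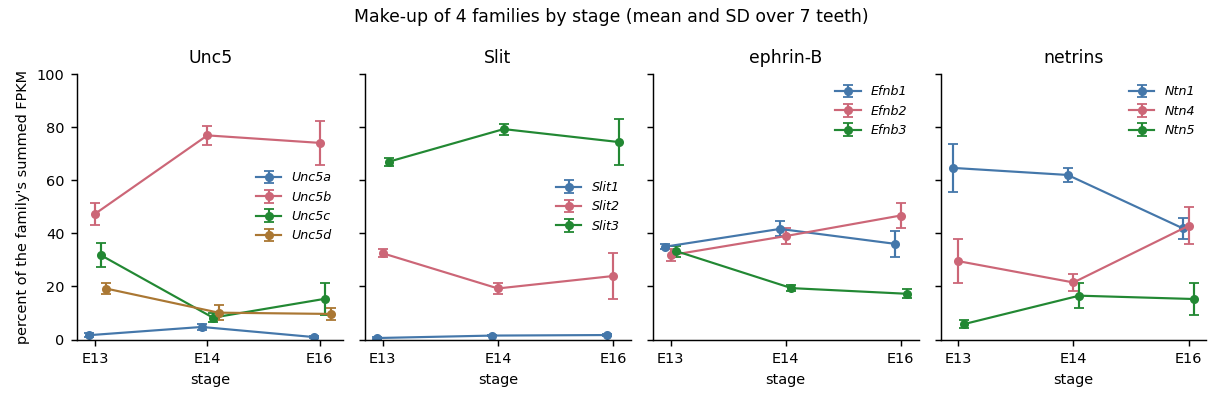
Share of each member in the summed FPKM of its family (percent), for the Unc5 receptors, Slits, ephrin-B ligands, and netrins at E13, E14, and E16, as mean and SD over 7 teeth. Unc5b goes from 47.3% to 76.9% of its family from E13 to E14, and Efnb3 from 33.3% at E13 to 17.2% at E16.

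Beyond the ligands and receptors, 49 further genes of these pathways were counted, among them other receptors, adhesion molecules, and proteins that carry the signal to the cytoskeleton. From E13 to E14, 9 of them rose and 3 fell (18.4% and 6.12%), beside 11.3% and 8.47% of all genes tested. The largest rises were those of the actin-oxidizing enzyme Mical2 (log2 1.79 ± 0.10 SE, adjusted p = 5.68e-12), the kinase Pak1 (1.16 ± 0.09 SE, adjusted p = 2.27e-09), and the adhesion molecule L1cam (0.87 ± 0.12 SE, adjusted p = 1.37e-05), and the falls were those of Nrcam, Srgap3, and Enah, by 0.56, 0.29, and 0.21 on the log2 scale (adjusted p = 0.00078, 0.0207, and 0.00837). From E14 to E16, 6 rose and 13 fell (12.2% and 26.5%), beside 15% and 13.1% of all genes, including the netrin receptor Dcc (-1.16 ± 0.12 SE, adjusted p = 5.19e-08), the axonal protein Cntn2 (-0.78 ± 0.18 SE, adjusted p = 0.00189), and the adhesion molecule Flrt2 (-0.66 ± 0.07 SE, adjusted p = 4.41e-08), and the largest rises were those of Dscam and Dscaml1, both with means of at most 27.5 normalized counts at any stage, and L1cam (log2 1.87, 1.45, and 0.46, adjusted p = 0.00296, 0.0333, and 0.00501). Over the whole interval 12 rose and 13 fell (24.5% and 26.5%), beside 21.6% and 19.6% of all genes. The rises were led by Dscam, Mical2, and Ngef (log2 2.79, 2.24, and 1.39, adjusted p = 6.59e-05, 1.37e-14, and 0.00973) and the falls by Dcc, Dpysl2, and Crmp1 (log2 -1.18, -0.83, and -0.74, adjusted p = 1.55e-08, 0.000456, and 0.000316). Without E16 3L the counts were 19 risen and 7 fallen (all genes 16.7% and 13.8%), 12 and 15 (18.5% and 15.8%), and 21 and 12 (25.5% and 23.1%).

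Markers of the cell types in a tooth germ moved between the same stages. Of 10 epithelium markers, 8 rose at each step and 1, Cldn4, fell at the first, and their sum was 17838 to 26723 normalized counts over the E13 teeth, 28801 to 39131 over the E14 teeth, and 44726 to 74296 over the E16 teeth. Of 10 dental mesenchyme markers, 3 fell at the first step, and 5 fell and 1 rose at the second, and their sum was 92825 to 100920, 84953 to 95125, and 41313 to 67073. Of 9 markers of the enamel knot, the signalling centre of the cap, 7 rose at E14, among them Shh. From E14 to E16, 4 rose (Shh, Edar, Msx2, and Fgf9) and 2 fell (Fgf3 and Fgf4). At that step the mean of Shh went from 1358.5 to 3724 normalized counts, that of Fgf3 from 522 to 271, and that of Fgf4 from 191 to 59.5. The sum over the 9 markers was 1921 to 2291 normalized counts at E13, 4651 to 5976 at E14, and 4087 to 11755 at E16, and it does not show the course of each marker. E16 3L had the lowest sum of its stage in all 3 lists. The part of these shifts in the changes of the members was not tested.

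Neuron markers were low, with sums over 14 genes of 1432 to 1788 normalized counts at E13, 1302 to 1747 at E14, and 891 to 1524 at E16. Stmn3, Elavl3, and Prph had means of at most 5.93 normalized counts at any stage, whereas axonal genes were higher at E13, with means of 501 for Gap43, 271 for the neurofilament Nefl, and 179.8 for Nefm. Nefl had means of 144 at E14 and 9.97 at E16, and Nefm of 62.5 and 19.3, while the tubulin Tubb3 went from 95.9 at E13 to 283 at E14. Other neuron markers rose from E14 to E16, Snap25 from a mean of 34.7 to 201 and Stmn2 from 65.7 to 124.5. The part of these markers in the changes of the members was not tested. Of the 9 neuron markers tested, 3 rose and 3 fell from E13 to E14, and 2 rose and 4 fell from E14 to E16. Of 8 Schwann cell markers, 1 rose and 1 fell at the first step and 2 rose and none fell at the second, with sums of 1122 to 1771, 1151 to 1765, and 1309 to 2140 normalized counts. Macrophage markers rose, 6 of 8 at the first step and 3 at the second, with sums of 1016 to 1570, 1672 to 2319, and 1922 to 3722. Of 6 pericyte markers 3 rose at the first step, and 2 rose and 1 fell at the second, and of 7 bone markers tested 2 rose at each step. Of 5 cartilage markers tested, 2 fell at the first step, and 2 rose and 1 fell at the second, and of 7 muscle markers tested 1 fell at each step. Of 7 red cell markers tested, 1 rose at the first step and 1 fell at the second.

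The values of the members with and without E16 3L are compared in the plot of both fits. Of the 33 members given in full, the 17 that changed from E14 to E16 over the 21 teeth also passed over the 20 teeth without it. Efna1, Efnb2, Slit3, and Unc5b passed only without E16 3L, with changes of 0.26 ± 0.09, 0.19 ± 0.05, -0.17 ± 0.06, and 0.39 ± 0.10 on the log2 scale (SE), against 0.13 ± 0.14, 0.10 ± 0.09, -0.33 ± 0.15, and 0.24 ± 0.15 with it.

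**Figure D5:**
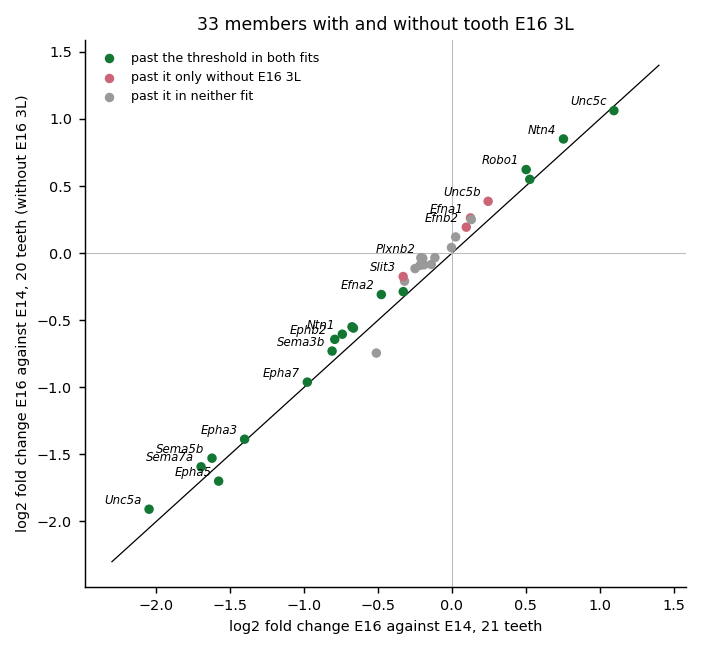
Log2 fold change of E16 against E14 for the 33 members given in full, over 21 teeth (horizontal) and over 20 teeth without E16 3L (vertical), with the line of equal values; green members passed the threshold in both fits, red ones only without this tooth, and grey ones in neither. Most points lie above the line, as for Unc5b at 0.24 and 0.39.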

How the data were processed

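RNA from single molar tooth germs was sequenced in 21 libraries, 7 each of E13, E14, and E16. The authors made libraries with the Ovation Mouse RNAseq kit, trimmed the reads, aligned them with STAR to GRCm38 with Ensembl 90, and deposited whole-number counts per gene from HTSeq; the strand setting is not given in the sources used here. For E13, E15, and E16 the authors also deposited estimated counts from salmon (14185 genes), which were used here as deposited. One E13 column (XL) carries a name that matches no sample title, and 1 such column is used by its stage only.

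Genes were tested with the edgeR (version 4.0.16) quasi-likelihood test in R 4.3.3, with all 21 teeth in 1 fit, TMM scaling, and the filterByExpr filter, and p-values were adjusted by the Benjamini-Hochberg method over 19101 genes with a threshold of 0.05. The method was first tested on simulated data. Library totals were 17814073 to 27115729, and the common biological coefficient of variation was 21.2%. DESeq2 (1.42.0), other scaling and filters, the side of the jaw, summed teeth of 1 embryo, an embryo block, and leaving out each tooth were tried as alternatives. The p-values measure the spread between teeth, some of which share an embryo.

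Given in full are, per family, the member of highest mean FPKM and the called member of largest change at each step, and the 10 members of largest called change per step, all changes with a mean of at least 50 normalized counts at a stage, which makes 33 members. For the partners, the 3 of largest called change in each direction are named. Members and lists were chosen with earlier results of these data known. Exon lengths, overlaps, and positions are from GENCODE M21 (GRCm38), and promoters are from RefSeq (GRCm38.p6).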

Additional observations from a re-analysis of the deposited data

Results flagged for a closer look

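In 16 of 99 groups of 7 teeth, 1 for each stage of the 33 members given in full, the highest or lowest tooth lay farther from the nearest other tooth than Dixon's 95% limit allows, where chance gives about 1 in 20 groups. The tooth was E16 3L in 12 of them. In normalized counts, E16 3L was low for Efna2 (212.72, stage median 705.03), Efna5 (1737.4, median 2904.6), Efnb2 (2627.3, median 4232.8), Epha2 (547.95, median 1130.1), Ephb2 (1286.3, median 3462.4), and Ephb4 (1915.6, median 4410.6). It was also low for Nrp2 (3904.7, median 7110.6), Plxnb2 (3197.5, median 9122.2), Robo1 (5609.8, median 11287), and Slit3 (2240.8, median 6167.3). It was high for Epha6 (30.07, median 13.77) and for Unc5c (2141.7, median 1754.3).

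The other 4 were high values at E13. The tooth 3L was high for Efna5 (3895.7, median 3286) and Nrp2 (9571.2, median 6849.9), the tooth 7L for Efnb2 (3520, median 2972.2), and the tooth 2L for Plxnb2 (11215, median 9905.2).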

How the results depend on the processing

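Among the 33 members given in full, no called change reversed under any alternative run, and for the other members the direction was not compared between runs. Of the 97 calls of single members over the 3 comparisons, 72 were kept in every alternative and 25 were lost in at least 1, of which 5 were lost in 10 or more (Efna1, Plxnc1, and Sema6b from E13 to E14, Efna2 and Sema5a from E14 to E16). Of 101 member values without a call, 31 were called in at least 1 alternative. With the embryo number as a replicate block, members lower at E14 than at E13 fell from 14 to 6, and the partners became 4 higher and 1 lower at E14 than at E13 (9 and 3 without it) and 7 higher at E16 than at E13 (12 without it). Efna1, Efnb2, Sema4d, and Slit3 were no longer called higher at E14. Of all 19101 genes, those lower at E14 than at E13 went from 1617 to 584 with this block, and those higher from 2150 to 1093. Genes higher at E16 than at E13 went from 4135 to 2830. The deviations from the stage means were correlated for teeth that share an embryo number across stages (r from -0.088 to 0.183 in 15 pairs, 3 of them over 0.1). For 2 teeth of 1 embryo r was no higher (from -0.097 to 0.136 in 3 pairs, 1 of them over 0.1). This check therefore cannot show whether the numbers pair teeth across stages. With only the compared stages in the fit, 20 partners were higher and 7 lower at E14 than at E13. Calls over all genes rose as well, to 3128 higher and 2513 lower of 18100 tested, from 2150 and 1617 of 19101. Leaving out E13 7L, E14 8L, and E16 3L together, an alternative chosen after seeing the data, gave 19 members higher at E16 than at E14 (11 in all teeth), and for the partners 17 higher and 6 lower at E14 than at E13, 12 higher at E16 than at E14 (6 in all teeth), and 22 higher at E16 than at E13. Of all 19044 genes tested in that run, 2759 were higher and 2092 lower at E14 than at E13. At E16, 3375 were higher than at E14 (2870 in all teeth) and 4807 higher than at E13 (4135 in all teeth). Leaving out each tooth in turn gave 10 to 19 members higher and 11 to 15 lower at E14 than at E13, 10 to 19 higher and 17 to 20 lower at E16 than at E14, and 19 to 25 higher and 21 to 23 lower at E16 than at E13. For the partners it gave 8 to 19 higher and 2 to 7 lower, then 5 to 12 higher, and 9 to 21 higher at E16 than at E13. Over all genes tested, the same runs gave 1821 to 3207 higher and 1256 to 2648 lower at E14 than at E13. From E14 to E16 they gave 2755 to 3565 higher and 2039 to 3040 lower, and from E13 to E16 3948 to 4914 and 3198 to 4452. The highest of these values for members, partners, and all genes that were higher were those without E16 3L. The salmon table ended the calls of Epha5 and Plxna2 from E13 to E16 (Plxna2 -0.19, adjusted p = 0.0682 in edgeR). For Epha5 the edgeR change there was -0.98 without E16 3L (adjusted p = 1.35e-07), an alternative chosen after seeing the data. Epha8 also had no call in that table, Robo4 is absent from it, and calls were gained for Plxnc1 and Sema3e. The cause of these differences was not tested.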

Other observations

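The salmon table also holds 6 teeth of E15, with totals of 17572427 to 22792374, for 66 of the members. Their label is E15, whereas E13 and E16 are labelled E13.5 and E16.5. The mean at E15 lay between those of E13 and E16 for 35 members, above both for 17, and below both for 14. The same shares over all 14185 genes of that table were not computed, so that these counts show nothing particular to the members. Unc5c had 2608 ± 490.1 normalized counts at E13, 945 ± 139 at E15, and 1723 ± 282 at E16 (mean ± SD). Sema7a had 99.0 ± 22.9, 299 ± 64.2, and 255 ± 60.1 normalized counts at these stages. Epha3 had 5416 ± 218, 4614 ± 608, and 2052 ± 349.6, and Epha7 had 6878 ± 273, 7123 ± 1866, and 3654 ± 486, with E15 nearer to E13 than to E16 for both receptors. Slit2 had 9474 ± 328, 5289 ± 489, and 6572 ± 504 normalized counts. These 5 members were chosen after their values were seen, and E15 was not tested.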
